A study of Mus musculus with 18 samples.

Results

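The transcriptional response to loss of POLE4 was examined in mouse embryonic fibroblasts (MEFs) that kept 1 functional copy of Trp53. The 3 libraries of Pole4-/- Trp53+/- cells (Pole4 null and Trp53 heterozygous) were compared with the 3 libraries of Pole4+/+ Trp53+/- cells (Pole4 wild type and Trp53 heterozygous), 6 of the 18 RNA-seq libraries in the series. The members were chosen by genotype label alone, and the other 12 libraries, which carry the same Pole4 contrast on Trp53+/+ and Trp53-/- backgrounds, served for the tests of difference. All MEFs were primary passage 1 cultures from mid-gestation C57BL/6 embryos, grown without treatment in 5% oxygen and 15% serum. The embryos came from crosses of doubly heterozygous parents, both alleles are germline, and the head, heart and liver had been removed before culture. The labels do not say which embryo each library came from, so p-values measure the spread between these libraries.

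POLE4 is a small histone-fold subunit of DNA polymerase epsilon, the leading-strand polymerase, which also takes part in assembling the replicative helicase at origins. It pairs with POLE3 and stabilizes the catalytic subunit POLE and the second subunit POLE2. TRP53 is activated by DNA damage and replication stress. It induces the CDK inhibitor CDKN1A (P21), and P21 lowers the transcription of E2F-dependent replication genes and of G2/M genes through the retinoblastoma family proteins. Cells with a single Trp53 copy have less TRP53 to mount this response, which makes the heterozygote the intermediate case between cells with and without the pathway.

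The 3 Pole4-/- Trp53+/- libraries held 35319918, 22085005 and 24066114 counts, and the 3 Pole4+/+ Trp53+/- libraries held 32441774, 17869991 and 9535971. Ribosomal RNA took from 3.75% to 15.5% of the former and from 0.968% to 26.8% of the latter, with replicate 2 highest in both. The sexes were unequal. By Xist and Y-linked transcripts all 3 Pole4+/+ Trp53+/- libraries were male, whereas replicate 1 of Pole4-/- Trp53+/- was male and replicates 2 and 3 were female. The imbalance ran the opposite way on the Trp53+/+ background, where all 3 Pole4+/+ libraries were female and 2 of the 3 Pole4-/- libraries were male. Autosomal genes were therefore used throughout. On the Trp53-/- background Pole4+/+ replicate 1 stood apart. Its median absolute log2 gap to its replicates was 0.441, the largest among the 18 libraries. It was read as female, with Xist at 857 CPM, but held 7.2 CPM of Y-linked transcripts. The list medians in Trp53-/- cells were not computed without it.

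Levels are given as CPM (counts relative to library size), scaled by TMM, a trimmed mean of ratios between libraries. Fold changes are log2 values of Pole4-/- over Pole4+/+, and a gene is called where its adjusted p is under 0.05, by edgeR's quasi-likelihood test with Benjamini-Hochberg adjustment over all 15710 genes tested, of which 15134 are autosomal. Values in Trp53+/+ cells are given beside those in Trp53+/- cells. On that background 603 autosomal genes (3.98%) were called, but with sex as a covariate 8 were, Ulbp1 among them, so the other calls given for Trp53+/+ cells depend on how sex is treated.

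The targeted genes were examined first. Pole4 (chr6:82618992-82705365, minus strand, GRCm38) stood at 11, 11.5 and 9.84 CPM in the Pole4-/- Trp53+/- libraries and at 22.1, 23.1 and 18.2 CPM in the Pole4+/+ Trp53+/- libraries. The groups did not overlap, and the null cells kept about 0.509 times the control level, so that RNA from the locus was still counted. Its log2 fold change was -0.97 (95% interval -1.38 to -0.57), which missed the threshold at an adjusted p of 0.26. The same comparison gave -0.95 in Trp53+/+ cells (adjusted p = 0.022, called) and -0.93 in Trp53-/- cells (adjusted p = 0.3). The Trp53+/- value differed from the Trp53+/+ value by -0.02 (95% interval -0.60 to 0.55), and where the deletion lies within the gene is not given in the sources used here. Trp53 itself was at 53.2, 55.6 and 48.4 CPM in the null and at 58.4, 56.2 and 59.6 CPM in the control libraries. These 6 values lie between the means of 90.8 ± 4.81 and 10.7 ± 1.83 CPM in Pole4+/+ cells with Trp53+/+ and Trp53-/- (SD, n = 3 each).

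**Figure D1:**
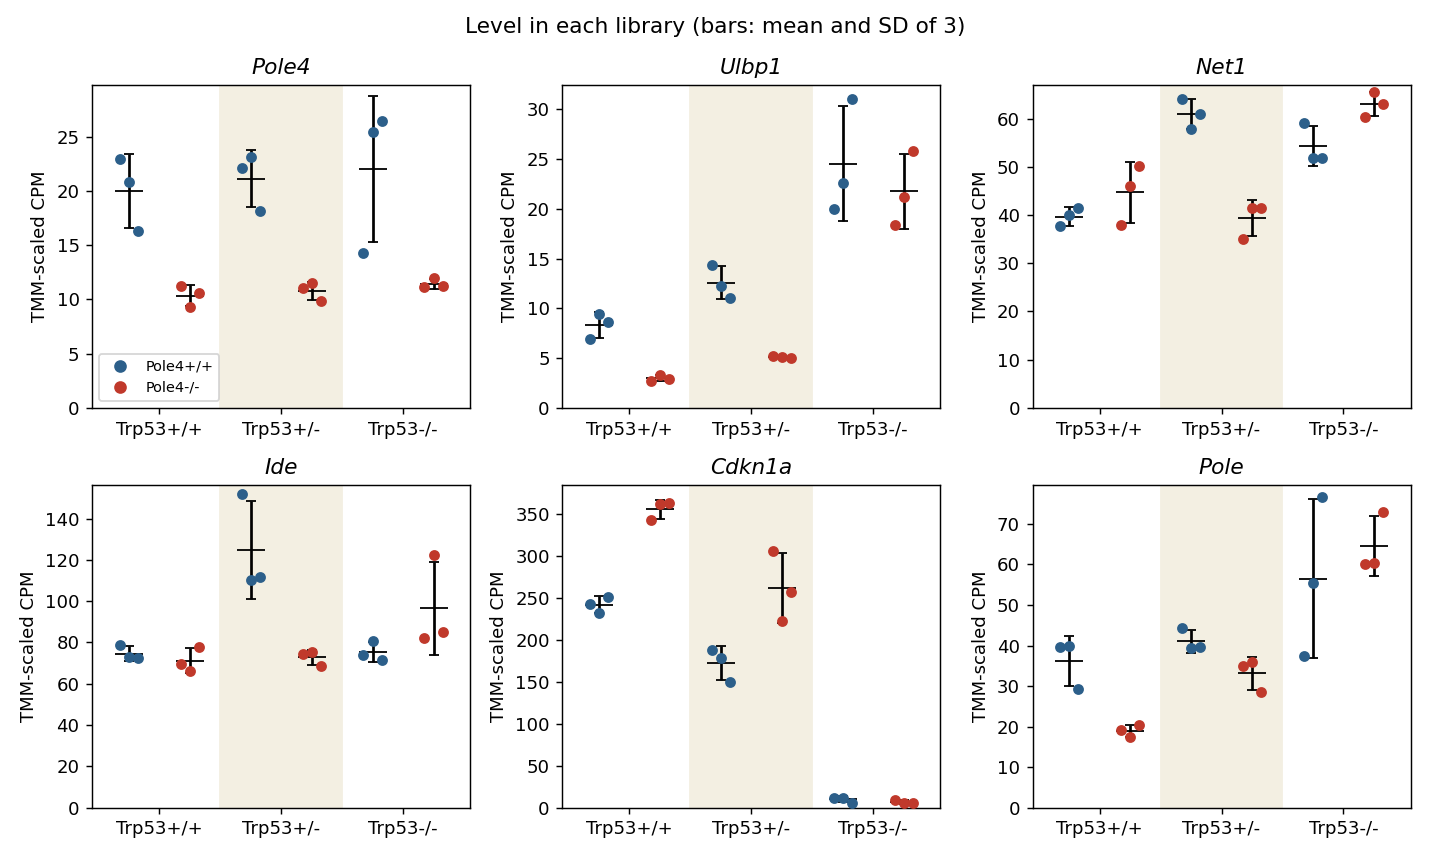
Level of 6 genes (vertical axis, TMM-scaled CPM) in each of the 18 libraries, by Trp53 background and with Pole4+/+ in blue and Pole4-/- in red; black bars give the mean and SD of 3 libraries and the shaded band marks Trp53+/- cells. Ulbp1 lay between 4.99 and 5.26 CPM in the Pole4-/- Trp53+/- libraries and between 11.1 and 14.4 CPM in the Pole4+/+ Trp53+/- libraries, and Cdkn1a was lower in both Trp53-/- genotypes than in any Trp53+/- library.

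One autosomal gene of 15134 was called in Trp53+/- cells, which is 0.00661% of those tested. It was Ulbp1 (ENSMUSG00000079685, chr10:7440362-7473638, minus strand, GRCm38), which encodes the MULT1 ligand of NKG2D, an activating receptor of natural killer cells and T cells. Ulbp1 fell in Pole4-/- Trp53+/- cells. Its level was 5.26, 5.14 and 4.99 CPM in these 3 libraries and 14.4, 12.2 and 11.1 CPM in the Pole4+/+ Trp53+/- libraries. The groups were far apart relative to their spread, with means of 5.13 ± 0.133 and 12.6 ± 1.66 CPM (SD, n = 3 each), a 2.46-fold difference. The log2 fold change was -1.30 ± 0.18 (SE), with a 95% interval from -1.67 to -0.93 and an adjusted p of 0.0268. A two-sided exact permutation test on the CPM values gave p = 0.1, the smallest that 3 libraries against 3 can give.

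The call rested on all 6 libraries. Leaving out any one of them kept the log2 fold change between -1.36 and -1.19 but raised the adjusted p to between 0.0506 and 0.278, so that no autosomal gene was called. With sex as a covariate Ulbp1 stood at -1.26 with an adjusted p of 0.0773. The single male Pole4-/- Trp53+/- library was at 5.26 CPM and the female libraries at 5.14 and 4.99 CPM. With 1 male library the parts of sex and genotype cannot be told apart.

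Because Ulbp1 was the single gene called, its promoter is shown as RefSeq gives it (GRCm38.p6, chr10:7473428-7473727, minus strand, 250 bases before the start and 50 after it). Capitals mark the 1 match among the motifs searched, on the reverse strand at bases 277 to 282 of the window, after the RefSeq start. The 5' end of the gene span given above lies inside this window, before that start.
Ulbp1: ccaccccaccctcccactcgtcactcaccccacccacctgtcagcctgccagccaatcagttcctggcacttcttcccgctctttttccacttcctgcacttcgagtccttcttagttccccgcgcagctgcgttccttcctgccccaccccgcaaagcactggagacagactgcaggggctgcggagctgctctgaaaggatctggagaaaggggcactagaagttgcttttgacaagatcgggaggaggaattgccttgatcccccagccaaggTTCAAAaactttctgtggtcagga

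The motifs, read on both strands, were E2F sites (TTTCGCGC, TTTGGCGC, TTTCCCGC or TTTGCCGC), the cell cycle homology region or CHR (TTTGAA or TTCGAA), the cyclic AMP response element (TGACGTCA), the AP-1 site (TGANTCA), the E-box (CACGTG) and the interferon-stimulated element. The match was a CHR, and a CHR was present in 19.2% of the 32851 promoters listed, against 2.26% for the E2F sites, 1.79% for the cyclic AMP element, 7.81% for AP-1, 7.15% for the E-box and 3.44% for the interferon element. No other motif had a match in the Ulbp1 window.

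The level of Ulbp1 was higher with fewer Trp53 copies in both Pole4 genotypes. In Pole4+/+ cells its mean was 8.34 ± 1.31 CPM with Trp53+/+, 12.6 ± 1.66 with Trp53+/- and 24.5 ± 5.79 with Trp53-/- (SD, n = 3 each). In Pole4-/- cells the corresponding means were 2.99 ± 0.324, 5.13 ± 0.133 and 21.8 ± 3.75 CPM. Within each Pole4 genotype the libraries of neighbouring Trp53 backgrounds did not overlap, a difference given here as levels without a test, and the libraries of Trp53-/- cells overlapped between Pole4+/+ and Pole4-/-. The Pole4 difference in Ulbp1 was -1.48 in Trp53+/+ cells (adjusted p = 0.00452) and -0.17 in Trp53-/- cells (adjusted p = 0.711). The Trp53+/- difference was 0.19 above that in Trp53+/+ cells (95% interval -0.37 to 0.74) and 1.13 below that in Trp53-/- cells (log2 -1.13, 95% interval -1.64 to -0.62, unadjusted p = 0.000264, adjusted p = 0.346). Neither difference passed the adjusted threshold.

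The related NKG2D ligands Raet1d and Raet1e, looked up after the values of Ulbp1 had been seen, did not share its pattern in level. Other ligands of this receptor were not looked up. Raet1d stood at 4.94 ± 0.449 CPM in Pole4-/- Trp53+/- against 4.32 ± 0.377 in Pole4+/+ Trp53+/- cells, and Raet1e at 6.05 ± 0.897 against 4.23 ± 1.36 CPM (SD, n = 3 each). Both were above the control mean, and neither was called. The Raet1 genes are close paralogs with overlapping annotations, so the division of reads among them is uncertain.

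**Figure D2:**
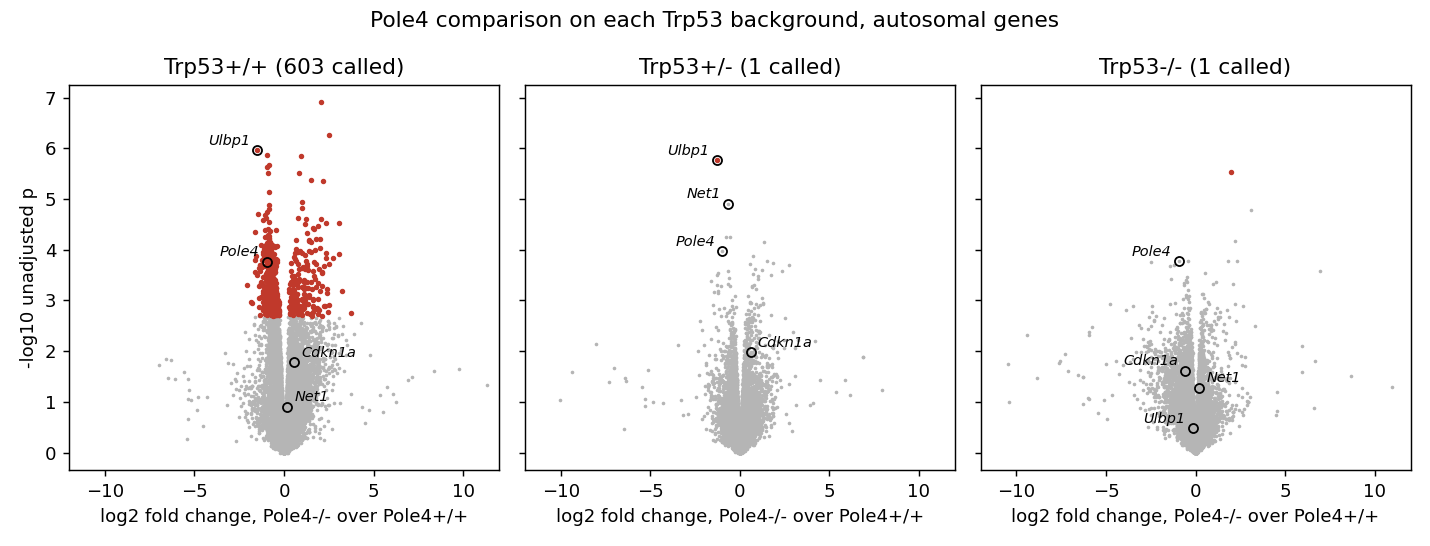
Log2 fold change of Pole4-/- over Pole4+/+ (horizontal axis) against -log10 of the unadjusted p (vertical axis) for 15134 autosomal genes on each Trp53 background; red points are called and circles mark 4 named genes. The Trp53+/- panel holds 1 red point, Ulbp1, as against 603 in Trp53+/+ cells, where 8 were called with sex as a covariate.

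No gene other than Ulbp1 passed the threshold. An unadjusted p under 0.05 was found for 831 autosomal genes, or 5.49% of those tested, of which 414 (2.74% of those tested) were higher and 417 (2.76%) lower in Pole4-/- cells. The 3 libraries of one genotype lay wholly above or below those of the other for 1982 genes, or 13.1%. The next lowest adjusted p was 0.0975. The median log2 fold change of all autosomal genes was -0.0047, on a scale that centres the bulk of genes near 0. Of the 8276 autosomal genes with a mean of at least 10 CPM, 97.4% had a log2 fold change within 0.5 of 0, and 32 differed by 1 or more. The median half-width of the 95% interval at this level was 0.266, before any adjustment for the number of genes tested.

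The genes nearest to the threshold, chosen here after their values were seen, included several whose level in Pole4+/+ Trp53+/- cells stood apart. Net1, an exchange factor for the small GTPase RhoA, was at 35.0, 41.6 and 41.4 CPM in Pole4-/- and 64.2, 57.8 and 60.9 CPM in Pole4+/+ Trp53+/- libraries (log2 -0.63, 95% interval -0.85 to -0.42, adjusted p = 0.0975). In Trp53+/+ cells the means were 39.7 ± 1.9 CPM in Pole4+/+ and 44.7 ± 6.27 in Pole4-/- cells, so the Pole4-/- Trp53+/- libraries lay near both and the Pole4+/+ Trp53+/- libraries lay above them. The difference between backgrounds was -0.80 against Trp53+/+ (adjusted p = 0.344) and -0.85 against Trp53-/- cells (adjusted p = 0.193). These were the lowest adjusted p-values in either test of difference. Ide, the insulin-degrading enzyme, had the same arrangement in level, with 74.4, 75.3 and 68.7 CPM in Pole4-/- and 152, 110 and 112 CPM in Pole4+/+ Trp53+/- libraries (adjusted p = 0.218). Its mean was 74.6 ± 3.56 CPM in Pole4+/+ and 71.2 ± 5.93 CPM in Pole4-/- Trp53+/+ cells (SD, n = 3 each). Slfn9, a Schlafen family member, was at 17.6, 19.3 and 18.7 against 25.3, 28.2 and 27.8 CPM, a log2 fold change of -0.54 with an adjusted p of 0.218, and was lower in Trp53+/+ cells too (-0.41, adjusted p = 0.0388).

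Among genes with higher levels, Cd59a, an inhibitor of the complement membrane attack complex, was at 5.95, 5.8 and 6.0 CPM in Pole4-/- and 1.88, 2.8 and 2.48 CPM in Pole4+/+ Trp53+/- libraries (log2 1.33, adjusted p = 0.218). Ptgis, prostacyclin synthase, was at 9.82, 12.8 and 14 against 6.7, 8.59 and 6.47 CPM (log2 0.75, adjusted p = 0.26) and was called in Trp53+/+ cells with nearly the same value (0.76, adjusted p = 0.0203). Pde3a, a cyclic nucleotide phosphodiesterase, had a log2 fold change of 0.57 and an adjusted p of 0.26. Klra4, a natural killer receptor of the Ly49 family whose members share sequence, so that its reads are uncertain, had 1.85. In each of these 4 genes the libraries of the genotypes did not overlap. DESeq2, run on the same counts, called 37 autosomal genes, among them Ulbp1, Net1, Ide, Slfn9, Cd59a, Ptgis, Pde3a, Klra4 and Pole4 with the same directions, so these genes are past or short of the threshold according to the tool.

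The subunits of polymerase epsilon were compared next. Pole, the catalytic subunit, was at 34.9, 36.0 and 28.6 CPM in Pole4-/- and 44.4, 39.3 and 39.6 CPM in Pole4+/+ Trp53+/- libraries. The groups did not overlap, but the log2 fold change of -0.31 (95% interval -0.72 to 0.10) was not called. In Trp53+/+ cells the value was -0.94 (adjusted p = 0.0244) and in Trp53-/- cells 0.19 (adjusted p = 0.709). The Trp53+/- value thus lay between the others, 0.62 above that in Trp53+/+ cells (95% interval 0.03 to 1.22, adjusted p = 0.491). The mean of the 5 genes of this list, Pole4 included, was 3.83, 4.60 and 4.55 log2 CPM in Pole4+/+ Trp53-/- libraries. It was 4.28, 4.19 and 4.34 log2 CPM in Pole4-/- Trp53-/- libraries. Pole4+/+ replicate 1 stood apart there, and the Trp53-/- value of Pole was not computed without it. Pole2, the second subunit, was at 6.49, 7.62 and 4.95 against 7.13, 6.92 and 6.65 CPM (log2 -0.12, 95% interval -0.61 to 0.36), with -0.99 in Trp53+/+ cells (adjusted p = 0.0379). Pole3, the histone-fold partner of POLE4, had -0.09 and Chrac1, a histone-fold partner of POLE3 in chromatin remodelling, had 0.10. Pole4 was the only one of these 5 genes with an unadjusted p under 0.05.

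Cdkn1a, the TRP53 target that inhibits cyclin-dependent kinases, was at 305, 222 and 256 CPM in Pole4-/- and 188, 179 and 149 CPM in Pole4+/+ Trp53+/- libraries. Each Pole4-/- library was above each control library, and the log2 fold change was 0.60 (95% interval 0.16 to 1.04, unadjusted p = 0.0104, adjusted p = 0.684), so it was not called. In Trp53+/+ cells the value was 0.56 (adjusted p = 0.115), from 242 ± 9.88 to 355 ± 11.3 CPM, and the difference between the backgrounds was 0.05 (95% interval -0.57 to 0.67). In Trp53-/- cells Cdkn1a was at 9.83 ± 3.61 CPM (SD, n = 3) where Pole4 was wild type and at 6.68 ± 1.89 CPM where it was null, and the difference of the Trp53+/- value from the Trp53-/- value was 1.18 (95% interval 0.52 to 1.84, unadjusted p = 0.00165, adjusted p = 0.631). The mean in Pole4-/- Trp53+/- cells, 261 ± 41.7 CPM, lay beside that of Pole4+/+ Trp53+/+ cells in level.

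Several other TRP53 targets had higher levels in the Pole4-/- libraries without a call. Mdm2, the ubiquitin ligase that limits TRP53, was at 124, 109 and 123 against 93.7, 99.6 and 80.3 CPM (log2 0.38, 95% interval 0.15 to 0.61, adjusted p = 0.457). Ccng1, cyclin G1, was at 631, 615 and 617 against 465, 557 and 436 CPM (log2 0.35, adjusted p = 0.876). Trp53inp1, a stress-induced partner of TRP53, overlapped between genotypes and had 0.22 (95% interval -0.89 to 1.33). Over the list of 47 tested TRP53 targets, none was called, 36 were above 0, and the median log2 fold change was 0.22 against -0.0047 for all autosomal genes. An unadjusted p under 0.05 was found for 9 of the 47 on the higher side, against the 2.74% of all genes, and for 0 on the lower side. The lowest p-values belonged to Cd80, a ligand of T-cell costimulation (10.6, 5.33 and 7.27 against 2.97, 3.93 and 4.08 CPM, log2 1.11, adjusted p = 0.398), and Tnfrsf10b, a death receptor (58.4, 44.1 and 52.4 against 37.6, 34.9 and 39.6 CPM, log2 0.47, adjusted p = 0.422). For 17 of the 47 genes all 3 Pole4-/- libraries were above all 3 Pole4+/+ libraries, as for 6.22% of all autosomal genes, and for 0 all were below, as for 6.87% of all. The median of the same list was 0.23 in Trp53+/+ cells, where 4 were called higher (0 with sex as a covariate), and -0.05 in Trp53-/- cells. The list mean per library was 4.82, 4.59 and 4.79 log2 CPM in Pole4-/- Trp53+/- and 4.56, 4.51 and 4.51 log2 CPM in Pole4+/+ Trp53+/- libraries, without overlap.

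Replication genes lay mostly below 0. Of 29 tested genes of origin licensing and firing, 0 were called, 1 was above 0, and the median log2 fold change was -0.20 in Trp53+/- cells, as against -0.80 in Trp53+/+ cells (13 called lower) and 0.15 in Trp53-/- cells. Wdhd1, a replisome scaffold, had the lowest p of the list, with 17.8, 20.6 and 19.6 against 28.6, 24.3 and 22.1 CPM (log2 -0.38, adjusted p = 0.889), followed by the origin recognition gene Orc5 (-0.20). Of 35 tested fork and chromatin assembly genes, 0 were called and 4 had an unadjusted p under 0.05 on the lower side (2.76% of all autosomal genes). Their median was -0.18, as against -0.69 in Trp53+/+ cells (19 called lower) and 0.12 in Trp53-/- cells. Pole4+/+ Trp53-/- replicate 1 stood apart, at an origin mean of 4.40 log2 CPM against 5.07 and 5.19 in its replicates. Its fork mean was 4.69 against 5.29 and 5.4. The Pole4-/- Trp53-/- libraries had origin means of 5.04, 4.99 and 5.18 and fork means of 5.21, 5.19 and 5.39. With sex as a covariate 0 genes of either list were called in Trp53+/+ cells (medians -0.75 and -0.60). The difference between the Trp53+/- and Trp53+/+ values had an unadjusted p under 0.05 for 12 of the 29 origin genes and 14 of the 35 fork genes, against 10% of all autosomal genes, and none was called. Prim1, the primase catalytic subunit, was at 10.8, 14.2 and 11.6 against 17.8, 17.7 and 16.9 CPM (log2 -0.52, 95% interval -0.88 to -0.15, adjusted p = 0.642). Prim1 was called lower in Trp53+/+ cells, at -0.95 (adjusted p = 0.0203).

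The G2/M list was the most uniform in sign of these lists, since 0 of its 50 tested genes were above 0. Its log2 fold changes ran from -0.38 to -0.07 with a median of -0.26. On the lower side 6 had an unadjusted p under 0.05 (2.76% of all autosomal genes), and 0 were called. In Trp53+/+ cells the median was -0.83 and 45 of the 50 were called lower, or 0 with sex as a covariate (median -0.78). In Trp53-/- cells the median was 0.24. The list means there were 5.54, 6.11 and 6.27 log2 CPM in Pole4+/+ libraries, where replicate 1 stood apart. They were 6.105, 6.18 and 6.365 log2 CPM in Pole4-/- libraries. Bub1b, a spindle checkpoint kinase, was at 41.1, 48.9 and 39.8 against 55.9, 50.2 and 55.3 CPM (log2 -0.32, adjusted p = 0.807), and Kif11, the bipolar spindle kinesin, at 54.6, 66.5 and 53.1 against 78.6, 72.8 and 72.5 CPM (log2 -0.36, adjusted p = 0.856). In each of these genes Pole4-/- replicate 2 was the library nearest to the controls. The list means per library, 5.27, 5.53 and 5.12 log2 CPM in Pole4-/- and 5.65, 5.58 and 5.49 in Pole4+/+ Trp53+/- libraries, overlapped, with Pole4-/- replicate 2 among the controls. Between libraries of the same replicate number, which deviated together, the Pole4-/- mean was the lower in all 3 pairs, and the origin and fork lists had the same order. Genes of a list vary together, so agreement in sign among them is not that many independent observations. The difference between the Trp53+/- and Trp53+/+ values had an unadjusted p under 0.05 for 25 of the 50 genes, where 10% of all autosomal genes had one. Between Trp53+/- and Trp53-/- it was so for 20 of the 50, where 6.38% had one. The latter count uses Pole4+/+ Trp53-/- replicate 1, the library that stood apart. None of these differences was called.

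Single cell cycle regulators varied more. Ccna2, cyclin A of S phase and G2, had -0.37 (95% interval -0.81 to 0.07) and Cdk1, the mitotic kinase, -0.13. Cdk2, its S-phase counterpart, had -0.10. Ccne1 and Ccne2, the G1/S cyclins, had 0.13 and 0.01, and E2f1, an activator of S-phase genes, had 0.02. None was called and the groups overlapped in all 6. The 31 genes of G1/S control had a median of -0.03 with 15 above 0. Rbl1, a retinoblastoma family protein, had the lowest p (-0.29) and Ccnd2, cyclin D2, the next (0.31). Among 26 tested checkpoint and homologous recombination genes, 0 were called, 2 were above 0 and the median was -0.24. An unadjusted p under 0.05 was found for 4 on the lower side (2.76% of all autosomal genes). For 9 all Pole4-/- libraries were below, as for 6.87% of all. The list median was -0.62 in Trp53+/+ cells, where 11 were called lower (0 with sex as a covariate). It was 0.21 in Trp53-/- cells, where Pole4+/+ replicate 1 stood apart. The Fanconi gene Fanci was at 7.69, 8.42 and 7.78 against 11.2, 10.4 and 9.76 CPM (log2 -0.40, adjusted p = 0.576), and Brca1, of homologous recombination, at 17.7, 20.5 and 19.6 against 24.8, 22.5 and 24.2 CPM (log2 -0.31, adjusted p = 0.65).

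**Figure D3:**
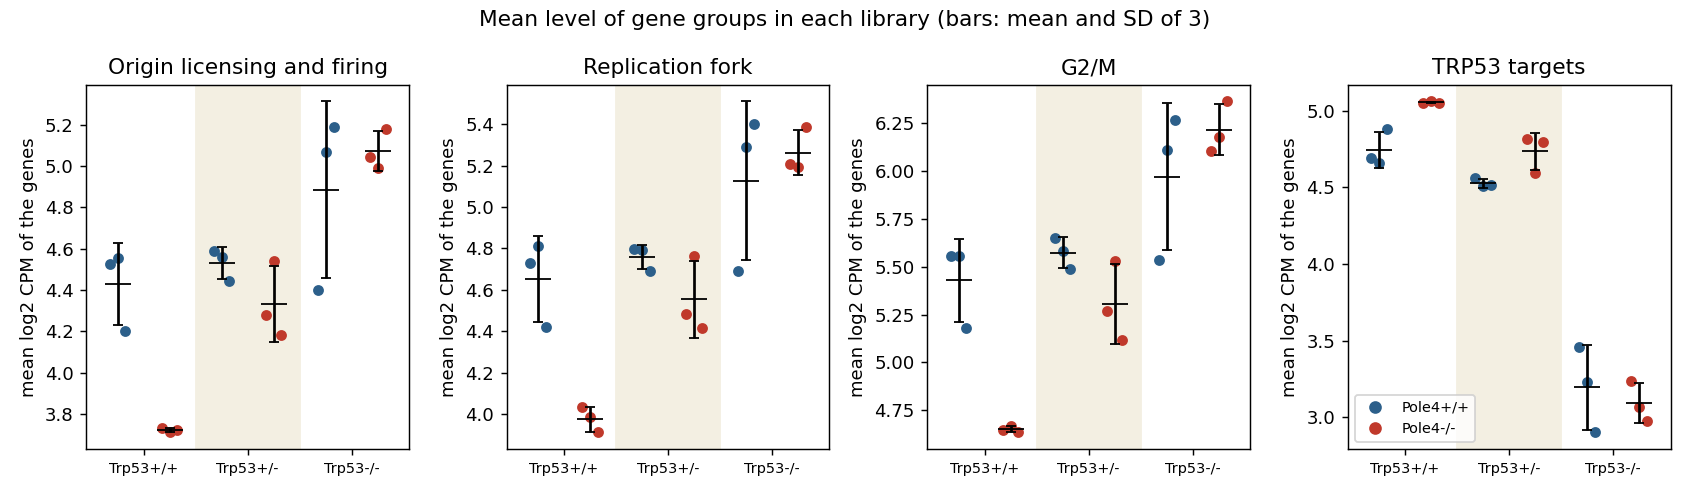
Mean log2 CPM of the genes of 4 groups (vertical axis) in each library, by Trp53 background and Pole4 genotype, with bars for the mean and SD of 3 libraries. In Trp53+/- cells the TRP53 target mean lay between 4.59 and 4.82 in Pole4-/- and between 4.51 and 4.56 in Pole4+/+ libraries, whereas the G2/M means of the genotypes overlapped, with the Pole4-/- library below the Pole4+/+ library of the same number in all 3 pairs.

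The comparison with Trp53+/+ cells was then made across all called genes. Of the 603 genes called on that background, 196 were higher and 407 lower in Pole4-/- cells, and the Trp53+/+ and Trp53+/- comparisons have no library in common. With a block for replicate number 862 were called there. Of the 407 lower genes, 375 (92.1%) were also below 0 in Trp53+/- cells, where 48.9% of all autosomal genes were above 0. An unadjusted p under 0.05 was found for 68 of the 375 (16.7% of the 407, where 2.76% of all autosomal genes were lower at that p). The median log2 fold change of the 407 was -0.22 against -0.70 in Trp53+/+ cells. The 407 include many replication and G2/M genes, which vary together, so 375 is not a count of independent observations. Of the 196 higher genes, 146 (74.5%) were above 0 in Trp53+/- cells, as were 48.9% of all autosomal genes, 36 (18.4% of the 196, against 2.74% of all) with an unadjusted p under 0.05, and their median was 0.17 against 0.99. Genes selected by a threshold on one background tend to have overstated values there, so the ratio of these medians is not an estimate of how much smaller the response was. On the Trp53-/- background 1 autosomal gene was called (0.00661%), and the medians of the same 407 and 196 genes were 0.12 and -0.13. These medians use Pole4+/+ Trp53-/- replicate 1, the library that stood apart from its replicates.

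The difference between the Pole4 effects was tested directly. No autosomal gene was called by edgeR between Trp53+/- and Trp53+/+ cells (0%), with 1514 (10%) at an unadjusted p under 0.05. DESeq2 called 26 and limma voom with quality weights 984. Between Trp53+/- and Trp53-/- cells edgeR called 0 (0%), with 966 (6.38%) at an unadjusted p under 0.05, DESeq2 called 17, and limma voom 3. A block for replicate number raised the edgeR count to 1 (Ebf2). Residual spread was shared over all 18 libraries, and a fit of only the 4 genotypes compared called 39 genes between Trp53+/- and Trp53+/+ cells.

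**Figure D4:**
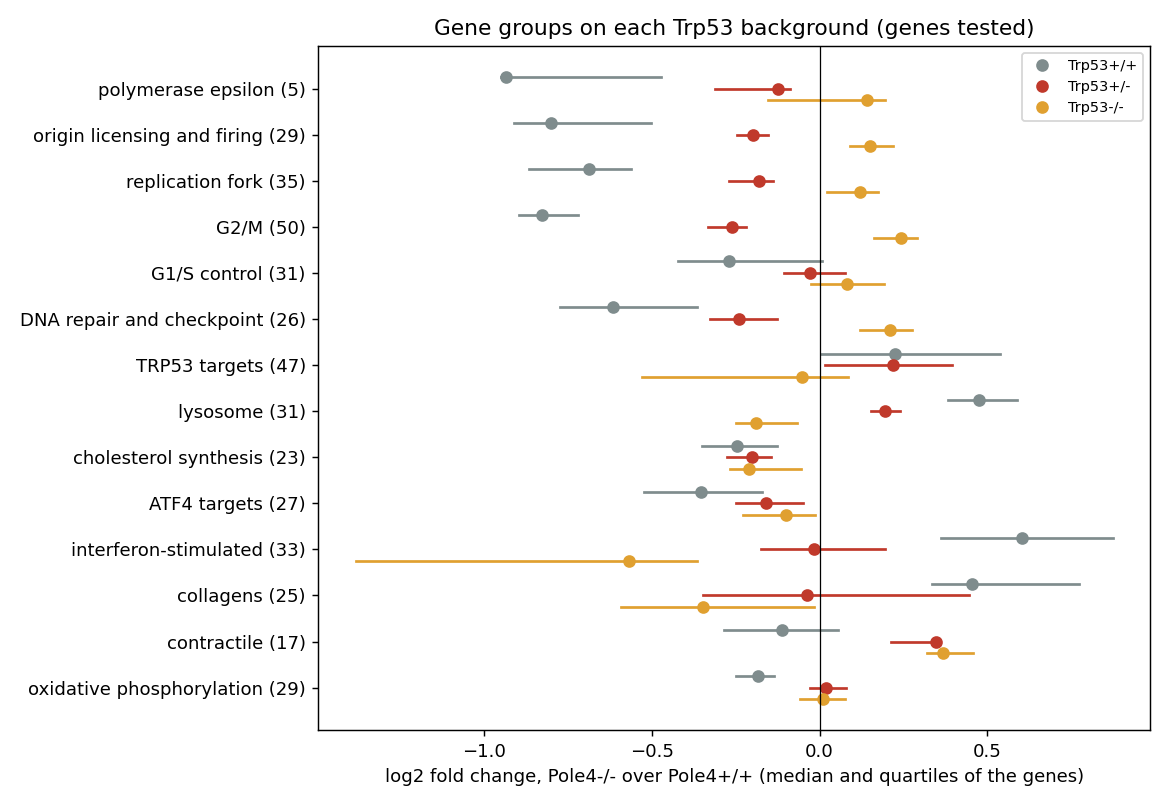
Median (point) and quartiles (line) of the log2 fold changes of Pole4-/- over Pole4+/+ (horizontal axis) over the genes tested in 14 groups, on each Trp53 background. The Trp53+/- medians of the origin, replication fork and G2/M groups, -0.26 to -0.18, lie between those of Trp53+/+ and Trp53-/- cells. The Trp53-/- values use Pole4+/+ replicate 1, which stood apart from its replicates (G2/M mean 5.54 against 6.11 and 6.27 log2 CPM).

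Metabolic and stress lists had small values. Of 23 cholesterol genes, 0 were called, 1 was above 0 and 5 had an unadjusted p under 0.05 on the lower side (2.76% of all autosomal genes), with a median of -0.20. Stard4, a sterol carrier, was at 35.6, 36.4 and 33.6 against 47.8, 43.2 and 43.1 CPM (log2 -0.35, adjusted p = 0.435) and Acat2, an acetyl-CoA acetyltransferase, had -0.33. The median of this list was -0.25 in Trp53+/+ and -0.21 in Trp53-/- cells, close to the Trp53+/- value. Of 31 lysosomal genes, 30 were above 0 (median 0.20; 48.9% of all autosomal genes were above 0), 2 had an unadjusted p under 0.05, a share near the 5.49% of all, and 0 were called. Cd63, a membrane tetraspanin, had 0.21 and Ctsd, cathepsin D, 0.49. ATF4 targets (27 genes, median -0.16; Slc3a2 -0.20 and Slc7a5 -0.29, the chains of an amino acid transporter), NRF2 targets (22 genes, median 0.05; Osgin1 1.00 and Me1, malic enzyme, 0.14) and glycolysis and hypoxia genes (29 genes, median -0.05; Ndrg1 -0.42 and Eno1, enolase, -0.23) held no called gene. Neither did oxidative phosphorylation subunits (29 genes, median 0.02; the cytochrome oxidase genes Cox6a1 and Cox4i1 both 0.15), immediate early genes (24 genes, median -0.00; Dusp1 0.39 and Socs3 -0.36) or chaperones (21 genes, median 0.01; Hspb1 0.43 and Hsph1 -0.17).

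Interferon-stimulated genes had a median near 0 in Trp53+/- cells. It was -0.02 over 33 tested genes, with 13 above 0 and 0 called. An unadjusted p under 0.05 was found for 1 (5.49% of all autosomal genes). The median was 0.60 in Trp53+/+ and -0.57 in Trp53-/- cells. In Trp53-/- cells the list mean was 2.71, 1.505 and 1.16 log2 CPM in Pole4+/+ libraries, where replicate 1 stood apart. It was 1.39, 1.28 and 1.05 log2 CPM in Pole4-/- libraries. Irgm1, an immunity-related GTPase, had the lowest p with 43.5, 45.0 and 46.6 against 23.0, 34.9 and 25.7 CPM (log2 0.69, adjusted p = 0.278), and Isg15, a ubiquitin-like modifier, had 1.02 (95% interval -0.39 to 2.43) at under 2 CPM in every library. Secreted factors of stressed fibroblasts had a median of 0.13 over 27 genes, with the chemokines Ccl20 at 1.55 and Cxcl12 at 0.61. None was called.

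Matrix genes had values in both directions without a call. Of 25 collagens, 4 were higher and 2 lower at an unadjusted p under 0.05 (2.74% and 2.76% of all autosomal genes), and the median was -0.04. The basement membrane chains Col4a1 and Col4a2, which share a promoter region and form 1 trimer, were paired in value. Col4a2 was at 855, 657 and 739 against 574, 467 and 474 CPM (log2 0.57, adjusted p = 0.398) and Col4a1 at 1231, 1042 and 1085 against 864, 745 and 670 CPM (log2 0.56, adjusted p = 0.457). Among 31 other matrix genes (median 0.08), Ltbp2, a microfibril protein, had 0.70 and Fbln1, a fibulin, -0.60. Proteases and their inhibitors (23 genes, median 0.08; Adamts12 0.53 and Adamts7 -0.43), TGF-beta and BMP genes (18 genes, median 0.17; the ligand Tgfb2 0.43 and the target Id1 0.90) and the IGF axis with imprinted genes (23 genes, median -0.09; Igfbp7 0.51 and Grb10 -0.16) held no called gene. Contractile genes had a median of 0.35 over 17 genes, 16 of them above 0, with 0 at an unadjusted p under 0.05; Tpm2 had 0.35 and Myl9 0.35.

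Genes that mark the place of origin and the type of the cells held no called gene. Of 38 positional transcription factors, 2 were higher and 8 lower at an unadjusted p under 0.05, with a median of -0.20, where 2.74% and 2.76% of all autosomal genes were higher and lower at that p. Gata6, of visceral mesoderm, was at 4.15, 6.55 and 6.37 against 2.25, 2.93 and 3.37 CPM (log2 1.01, adjusted p = 0.414), and En1, of limb and trunk ectoderm and dermis, at 7.0, 6.73 and 6.62 against 15.2, 8.92 and 8.87 CPM (log2 -0.71, adjusted p = 0.435). Of 35 Hox genes, 22 were above 0 (median 0.12), and 2 had an unadjusted p under 0.05, a share near the 5.49% of all genes, both on the higher side: Hoxd12 (2.13, at under 4 CPM in every library) and Hoxa11 (0.53). Fibroblast markers were tested for all 14 list members and summed to 21782 to 27535 CPM in Pole4-/- and 21835 to 28110 CPM in Pole4+/+ libraries, so the labelled cell type had its markers in both genotypes. Of the 14 markers 11 were below 0 (median -0.14), and their mean log2 CPM was lower in the Pole4-/- library of each same-numbered pair, at 8.34, 8.03 and 8.47 against 8.77, 8.22 and 8.60. Pdgfra, a receptor of mesenchymal cells, was at 44.1, 30.6 and 46.8 against 131, 56.2 and 122 CPM (log2 -1.35, adjusted p = 0.711), and Prrx1, a limb mesenchyme factor, had -0.28.

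Among markers of other cells, the summed level of skeletal muscle genes was higher in every Pole4-/- library. The 15 tested markers of 22 summed to between 134 and 209 CPM in Pole4-/- and between 67.9 and 87.0 CPM in Pole4+/+ Trp53+/- libraries. The sum was led by Acta1, skeletal alpha-actin (153, 78.4 and 73.3 against 41.8, 52.6 and 32.9 CPM, log2 1.26, adjusted p = 0.26), and Des, desmin (48.9, 46.1 and 76.0 against 18.7, 27.4 and 23.5 CPM, log2 1.3, adjusted p = 0.398). Of the 15 markers 11 were above 0 and 4 below, and the list means per library, 0.04, -0.14 and 0.82 log2 CPM in Pole4-/- and -0.22, -0.31 and 0.35 in Pole4+/+ libraries, overlapped. Within each same-numbered pair the Pole4-/- mean was the higher. The list median was 0.42, and it was -0.23 with male libraries only, which leave 1 Pole4-/- library, and -0.03 without Pole4-/- replicate 3. The muscle creatine kinase Ckm was at 0 in all 6 libraries. Macrophage (13 of 14 tested, 14.1 to 38.4 against 10.5 to 43.0 CPM; Cd68 -0.54 and C1qc -0.56, list median 0.04 with 7 of 13 above 0), adipocyte (5 of 8, 10.5 to 13.7 against 10.4 to 12.6; Fabp4 0.91 and Lpl -0.20), bone (4 of 7, 436 to 765 against 468 to 656; Runx2 -0.31 and Alpl -1.18, list median -0.57) and cartilage sums (13 of 16, 187 to 423 against 241 to 319; Col9a1 -1.50 and Hapln1 -0.96, list median 0.06 with 7 of 13 above 0) overlapped between genotypes. The mean log2 CPM of the bone markers was nonetheless lower in every Pole4-/- library, at 3.39, 3.37 and 2.99 against 3.62, 4.00 and 3.59. Endothelial (7 of 12, 62.1 to 74.1 against 41.4 to 59.1; Emcn 1.47 and Esam 1.16) and epithelial sums (3 of 12, 23.0 to 31.4 against 11.8 to 17.0; Krt19 0.88 and Krt8 0.66) were higher in every Pole4-/- library, as were 6.22% of single autosomal genes. The endothelial list median was 0.34, with 5 of 7 above 0 and 2 below. Pecam1, Cdh5, Epcam and Cdh1 were among the markers that did not pass the filter. The Krt8 value turned to -0.49 with sex as a covariate. The neural and glial sum (10 of 14 tested) was also higher, at 256 to 300.0 against 210.2 to 247 CPM, and was led by Nes, nestin (0.69), whereas the other 9 tested markers were below 0 (Map2 -0.49) and the list median was -0.27. The endothelial marker Cldn5 and the epithelial markers Esrp1, Grhl2 and Krt5 were at 0 in all 6 libraries, the hepatocyte list had 1 tested member, Trf (0.16), and the erythroid list none. No marker was called, and in bulk RNA fewer cells of a type and less RNA per cell cannot be told apart. The part of cell composition in the Pole4 values was not tested.

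Finally, genes near Pole4 were examined, because alleles linked to a targeted locus can differ between genotypes. Within 10 Mb on either side, 143 other genes were tested, 0 were called, 3 (2.1%) had an unadjusted p under 0.05, and the median log2 fold change was -0.03. The share was below the 5.49% of all autosomal genes. Hk2, hexokinase 2 and the tested gene nearest to Pole4 by midpoint, had -0.03, and Dysf, dysferlin, had 0.64.

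**Figure D5:**
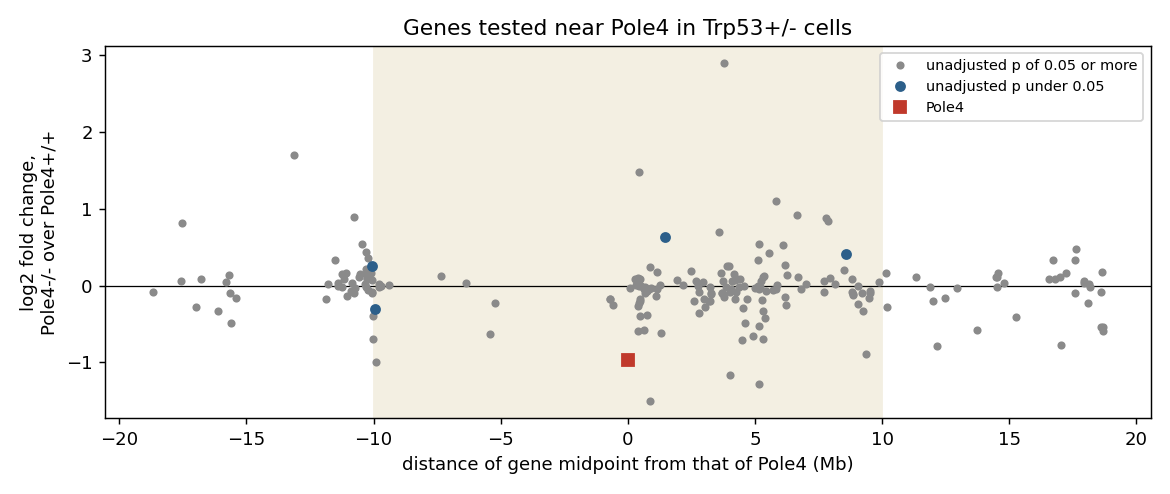
Log2 fold change of Pole4-/- over Pole4+/+ in Trp53+/- cells (vertical axis) against the distance of each tested gene from Pole4 in Mb (horizontal axis), with the 10 Mb window shaded, Pole4 in red and genes at an unadjusted p under 0.05 in blue. In the window 3 of 143 genes are blue.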

How the data were processed

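RNA from passage 1 MEFs of 6 genotypes (3 libraries each) was amplified with an Ovation kit and sequenced as paired-end reads. Per the labels and the submitters' processing notes, the authors aligned reads with STAR 2.5.2 to GRCm38 and estimated expected counts per gene with RSEM 1.3.0, which divides reads shared by several genes. The deposited values are these expected counts for 51912 genes, without normalization, and 6.14% of them are not whole. They were rounded here. Of the gene identifiers 51633 matched GENCODE's GRCm38 annotation.

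Genes were filtered with filterByExpr and tested in edgeR 4.0.16 (R 4.3.3) with TMM scaling, 1 mean per genotype over 18 libraries (12 residual degrees of freedom) and robust quasi-likelihood F-tests, adjusted over all 15710 genes by Benjamini-Hochberg. Differences of Pole4 effects between backgrounds were interaction contrasts in the same fit. List means per library were taken on log2 CPM, computed with 2 as the prior count. The script was tested on simulated counts. Library depth ran from 9535971 to 35319918 counts. No pair of libraries within a genotype agreed within sampling noise.

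Deviations from the genotype means correlated at 0.274, 0.502 and 0.310 between Trp53+/- libraries of the same replicate number, and at -0.348 to 0.106 otherwise. The numbers come from the labels, which name no shared litter or batch, and a fit with the number as a block was compared. Alternatives were DESeq2 1.42.0, other scalings and filters, limma 3.58.1 voom with quality weights, sex and, chosen after seeing the data, ribosomal RNA share as covariates, and leaving out each of the 6 libraries.

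The members, gene lists and motifs were chosen with earlier results of these data known. Genes named are a fixed set of polymerase, TRP53 and cell cycle genes, called genes, and the 2 members of lowest p in each list (a list's other members are named only as examples). One gene that this rule names is not reported here. Net1, Ide, Slfn9, Cd59a, Ptgis, Pde3a, Klra4, the Raet1 genes, Ebf2, Hk2, Dysf, Gm6093, Irx1 and markers at 0 were named after their values were seen. Promoters are from RefSeq.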

Additional observations from a re-analysis of the deposited data

Results flagged for a closer look

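Xist, which lies on the X chromosome and outside the autosomal comparison, was at 387 and 740 CPM in replicates 2 and 3 of Pole4-/- Trp53+/- cells, while the 3 Pole4+/+ Trp53+/- libraries had at most 2 CPM. This signal is far above that in the controls and lies in a gene the comparison does not use. Sex and Pole4 genotype are partly confounded in Trp53+/- cells, and the part of sex in the autosomal values cannot be told apart from that of genotype beyond the covariate fit.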

How the results depend on the processing

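In Trp53+/- cells 1 autosomal gene was called. The count was 0 at an adjusted p under 0.01, with library totals alone, with only the compared genotypes, with a sex covariate and with male libraries only. It was 2 with ribosomal RNA share as a covariate, 37 with DESeq2 and 238 with limma voom and quality weights. It was 0 in each of the 6 fits that left out 1 library. For the difference from Trp53+/+ cells the count of 0 became 26 with DESeq2, 39 with only the compared genotypes and 984 with limma voom. For the difference from Trp53-/- cells it became 17 with DESeq2, 1 with the replicate block and 3 with limma voom. In Trp53+/- cells the replicate block changed no call of a named gene, and Ulbp1 was -1.31 under it (adjusted p = 0.0331). In Trp53+/+ cells the block called 862 genes, against 603 without it. Fewer samples were used when libraries were left out; the cause of the other changes was not tested.

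Ulbp1 kept its direction under every alternative run (-1.36 to -1.26, and -1.36 to -1.19 with a library left out), with adjusted p from 7.91e-07 to 0.337. It was not called with library totals alone (0.337), only the compared genotypes (0.0575), a sex covariate (0.0773) or male libraries only (0.285). The last leaves 1 Pole4-/- Trp53+/- library, which is assumed to vary like the other groups. The medians of the origin, fork, G2/M, checkpoint, cholesterol and positional lists stayed below 0 and that of TRP53 targets stayed above 0 throughout. Leaving out 1 library moved some of these medians by over 1.5 times. Without Pole4-/- replicate 2 the origin and fork medians were -0.33 and -0.31, and without Pole4-/- replicate 3 the origin, fork and G2/M medians were -0.11, -0.11 and -0.17. Without Pole4+/+ replicate 1 the cholesterol median was -0.13, and without Pole4+/+ replicate 3 the positional median was -0.12. The skeletal muscle median ran from -0.23 with male libraries only to 1.26 with a higher count minimum.

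Several named genes that were not called changed sign. Ccne2 was -0.018 with the replicate block, -0.15 with limma voom, -0.14 with a sex covariate, -0.36 with male libraries only and -0.0597 with the ribosomal RNA covariate. With the sex covariate and with male libraries only, Chrac1 was -0.10 and -0.10, E2f1 -0.0198 and -0.0109, and Krt8 -0.49 and -0.46; Trf was -0.15 with the former. With single libraries left out Ccne2 ran from -0.287 to 0.182, Chrac1 from -0.0189 to 0.221, E2f1 from -0.0198 to 0.0559, Pole2 from -0.269 to 0.0347, Trf from -0.249 to 0.453, Lpl from -0.366 to 0.0579 and C1qc from -1.005 to 0.00084. Other genes kept their sign in these fits but moved in size. En1 ran from -0.846 to -0.391, Hapln1 from -1.27 to -0.272, Cd68 from -0.855 to -0.108 and Krt8 from 0.0992 to 1.31. Depth limits low genes most, since the shallowest Trp53+/- library held 9535971 counts.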

Other observations

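A shared direction of the Pole4 difference on all 3 Trp53 backgrounds was found for 3274 autosomal genes (21.6%), where 48.9%, 51.1% and 47.4% of genes were above 0 in Trp53+/-, Trp53+/+ and Trp53-/- cells, so it does not set a gene apart. Of these genes 2 outside the lists are given here for their size, named after their values were seen. Gm6093 (chromosome 13) was at 17.7, 13.9 and 16.5 CPM in Pole4-/- and 3.07, 6.52 and 4.88 CPM in Pole4+/+ Trp53+/- libraries, a log2 fold change of 1.76 (adjusted p = 0.26). It was 2.02 in Trp53+/+ cells (adjusted p = 0.0203) and 2.19 in Trp53-/- cells (adjusted p = 0.3). The groups did not overlap in Trp53+/- cells, and the gene lies on another chromosome than Pole4. Irx1, a homeobox gene also on chromosome 13, was at 14.6, 17.6 and 14.1 against 26.1, 23.1 and 23.6 CPM, a log2 fold change of -0.65 (adjusted p = 0.26), with -0.81 in Trp53+/+ (adjusted p = 0.0203) and -0.43 in Trp53-/- cells (adjusted p = 0.447). The 3 comparisons share no library.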
